A study of Mus musculus with 6 samples.

Results

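The transcripts described here encode the nuclear subunits of 3 inner membrane complexes: complex III (cytochrome bc1), complex IV (cytochrome c oxidase) and ATP synthase. The members were the rows of the gene table whose symbol begins with Uqcr, Atp5, Cox4, Cox5, Cox6, Cox7 or Cox8, and 11 rows of these prefixes that are named as pseudogenes were left out. This gave 45 of the 55416 rows, of which 8 belong to complex III, 19 to complex IV and 18 to ATP synthase. Primary mouse chondrocytes from knee joints were transfected with a control siRNA (siNC, n = 3 libraries, genotype given as WT) or with an siRNA against Pkm2 (siPkm2, n = 3 libraries), in order to learn what PKM2, a pyruvate kinase isoform, does in these cells. Both groups were grown in DMEM/F12 with FBS and received a transfection. The labels give neonatal knee joints as the source, whereas the supplementary methods name adult mice. The genotype label of siPkm2 replicate 1 names a PKM2 knockdown, and those of replicates 2 and 3 name other PKM numbers, but the titles of all 3 libraries read siPKM2. Nothing states whether the replicates came from separate animals, so the p-values measure the spread between these libraries. No strain or allele is given for either group.

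Complex III takes electrons from ubiquinol and passes them through its Rieske iron-sulphur protein to cytochrome c, complex IV hands them on to oxygen, and ATP synthase turns the resulting proton gradient into ATP. The catalytic centres of complexes III and IV are partly encoded in mitochondrial DNA, while the remaining subunits come from nuclear genes and are imported. Several complex IV subunits exist as a widely expressed form and a form typical of heart and skeletal muscle, lung or testis, and chondrocytes are known for relying largely on glycolysis in their poorly vascularised tissue.

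Total estimated counts lay between 22317065 and 25691096 per library. Pkm, the gene targeted by the siRNA, had CPM values (counts scaled to library size with TMM factors) of 2335, 2746 and 1674 in siNC libraries 1, 2 and 3 and of 336, 541 and 309 in siPkm2 libraries 1, 2 and 3, so that the groups did not overlap. All 10 chondrocyte markers were detected, but their summed level was 10398 and 14521 CPM in replicate 2 of siNC and siPkm2, against 41850 to 48902 CPM in the other libraries. Replicate 2 also stood apart in 6 inflammation genes, whose summed level was 9721 and 10030 CPM there and 19.6 to 133.7 CPM elsewhere. The 6 interferon-induced genes summed to 16.8, 1020 and 29.3 CPM in siNC and to 684, 1888 and 512 CPM in siPkm2, higher in every pair. The 5 macrophage markers summed to at most 61.0 CPM, the 3 endothelial markers to at most 1.21 CPM and the 6 skeletal muscle markers to between 6.43 and 13.2 CPM. In siNC and siPkm2, the 5 fibroblast markers reached 5544 and 8623 CPM in replicate 2, against 2266 to 5346 CPM in the other libraries, and the 3 adipocyte markers summed to at most 30.7 CPM. The part of these differences in the results below was not tested, and in bulk RNA fewer cells of a type and less RNA per cell cannot be told apart. Libraries of the same number resembled each other, so differences are given within replicate pairs as well as between groups.

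The summed level of the subunit transcripts was slightly higher after Pkm2 silencing in all 3 pairs. Expressed as TPM, a level per transcript length that can be added over genes, the 45 members summed to 13992, 12539 and 13489 TPM in siNC libraries 1, 2 and 3 and to 15773, 13831 and 14946 TPM in the matching siPkm2 libraries. The siPkm2 library was above its own siNC partner each time, but siPkm2 replicate 2 stayed below siNC replicate 1, so the groups overlapped. The means were 13340 ± 738 TPM (SD, n = 3) and 14850 ± 975 TPM (SD, n = 3), a ratio of 1.11, with pair ratios of 1.13, 1.10 and 1.11. The members thereby took 1.34% of all TPM in siNC and 1.49% in siPkm2. Complex III summed to 2434 ± 143 TPM in siNC and 2646 ± 163 TPM in siPkm2 (ratio 1.09), complex IV to 5206 ± 186 and 5758 ± 203 TPM (ratio 1.11), and ATP synthase to 5701 ± 418 and 6447 ± 610 TPM (ratio 1.13; SD, n = 3 throughout). The summed levels of the 3 complexes were thus shifted by similar amounts, with pair ratios between 1.08 and 1.16. A sum is weighted towards abundant members and does not describe each gene. In complex IV, 8 of 14 tested members had a positive log2 fold change and 6 a negative one.

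**Figure D1:**
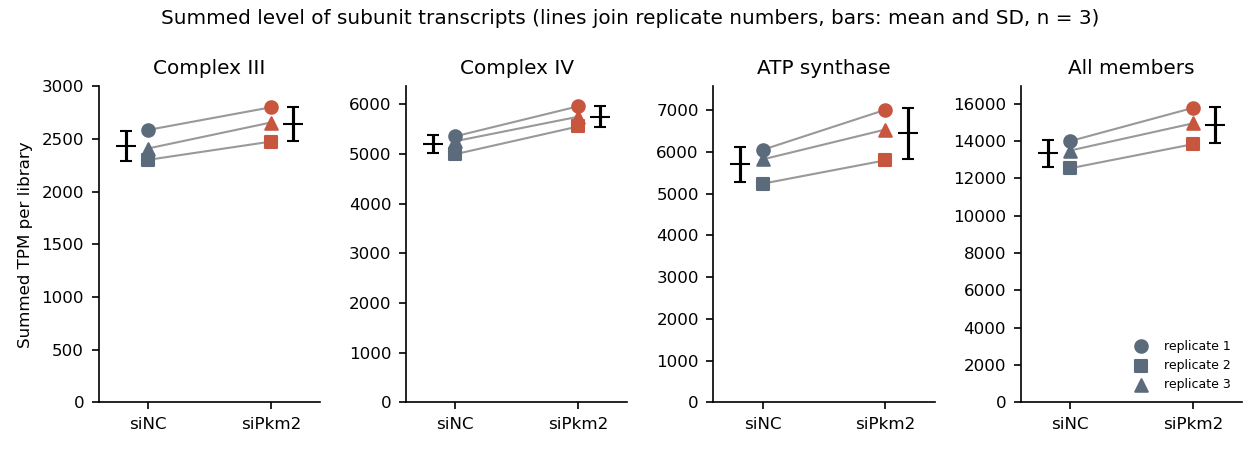
Summed TPM of the nuclear subunit transcripts of each complex and of all 45 members in every library, with lines joining libraries of the same replicate number and bars giving the mean and SD of 3 libraries. Every line rises from siNC to siPkm2, and replicate 2 is the lowest library of each group.

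Single members spanned a wide range of levels. Among the tested members the highest mean over all 6 libraries was 951 TPM for Atp5b, the catalytic beta subunit of ATP synthase, followed by Cox4i1 at 867 TPM, a core-associated subunit of complex IV. In complex III the highest was Uqcr10 at 602 TPM and the lowest Uqcrc2 at 99.6 TPM, in ATP synthase the lowest was Atp5g2 at 18.2 TPM, and in complex IV the lowest was Cox6a2 at 4.02 TPM. The muscle, testis and lung forms of complex IV subunits fill the lower end of the scale. No count was recorded in any library for Cox7b2, Cox8b, Cox8c or a second row carrying the symbol Atp5o (ENSMUSG00000116933). Cox6c2, which the annotation lists as a processed pseudogene, reached at most 1.11 estimated counts and Cox7a1 between 4 and 17 counts. These 6 rows did not pass the filter on low counts, which left 39 members tested. Fractional counts, as arise when reads are divided between similar sequences, were found in 17 members when values within 0.02 of a whole number were taken as whole. All 6 libraries were fractional in Atp5j, Atp5g2, Cox7a2l and Cox7c. Others of the 17 were Atp5l, Cox4i1, Atp5b, Cox5b, Cox6c and Atp5g1, and also Atp5o, in 1 library. The levels of such members may be less certain, by an amount that was not tested.

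**Figure D2:**
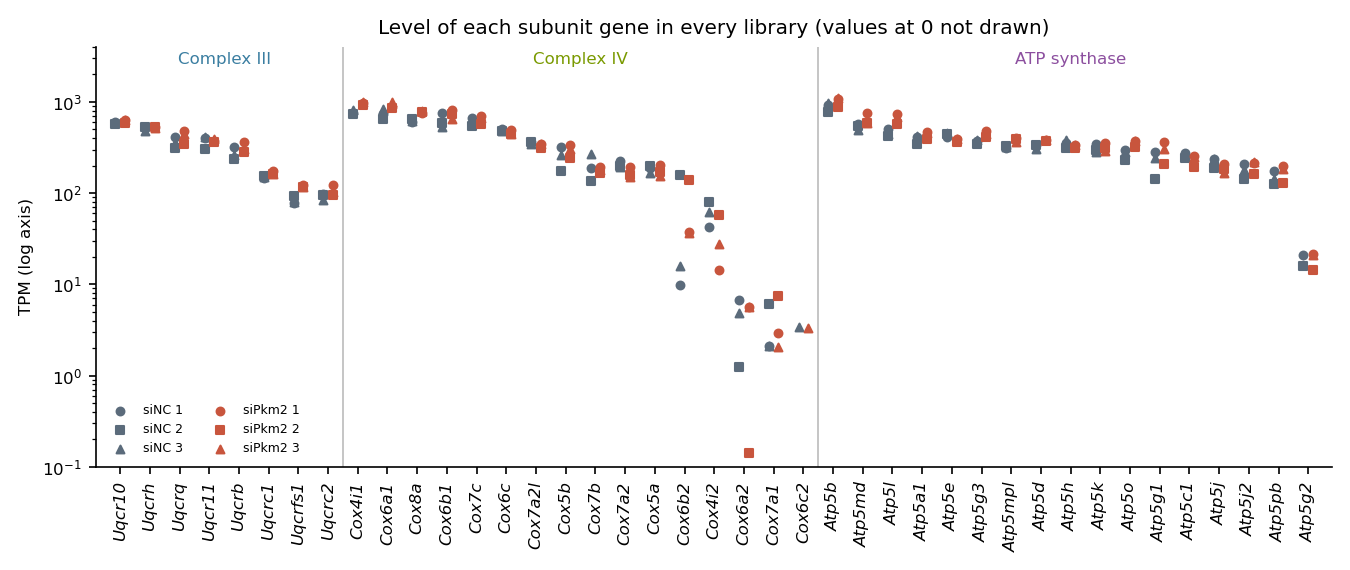
TPM on a log axis of each member with a count, by complex and in order of its mean, with one symbol per replicate and colours for siNC and siPkm2. Most members form a band between the mean levels of Uqcrc2 and Atp5b with siNC and siPkm2 intermingled. By their means Cox4i2, Cox6b2, Cox6a2, Cox7a1, Cox6c2 and Atp5g2 lie below it.

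Gene by gene, the members tilted upwards by a small amount. The fitted log2 fold change was positive in 27 of 39 members (69.2%), against 48.1% of the 15269 genes tested, and its median was 0.18, against -0.02 over all genes. The median was 0.18 in complex III (7 of 8 higher), 0.10 in complex IV (8 of 14 higher) and 0.20 in ATP synthase (12 of 17 higher). Within pairs, the median difference of the members was 0.05, 0.15 and 0.28 on the log2 scale in pairs 1, 2 and 3. In all 3 pairs 21 members were higher and 4 were lower, and 14 went both ways, where 30.5% of all genes were higher and 30.6% lower in all 3 pairs. On TPM 23 members were higher and 8 lower in all 3 pairs, where 25.5% and 31.7% of all genes were. Only 5 members had every siPkm2 library above every siNC library (Uqcrfs1, Uqcrc1, Cox4i1, Cox8a and Atp5l) and 1 below (Atp5e), where 12% and 12.3% of all genes did.

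Few members passed a test, and in both directions combined their share was not above that of all genes. Without the replicate block, the quasi-likelihood test of edgeR, adjusted by Benjamini-Hochberg over all genes, called 0 of 39 members, as it called 0.0% of all genes, and 3 members had an unadjusted p under 0.05 (Uqcrfs1, Atp5l and Cox8a) where 17.6% of all genes did. DESeq2 without the block called 1 member, Uqcrfs1, against 5.38% of genes. With the replicate number as a block, edgeR called 7 of 39 members (17.9%) at an adjusted p under 0.05, where 23.1% of all genes were called. Of these, 5 rose (Uqcrfs1, Atp5l, Atp5o, Cox4i1 and Atp5g3), where 12.3% of genes did, and 2 fell (Cox4i2 and Cox7a2), where 10.8% of genes did. With the added condition of a fold over 2, only Cox4i2 was called, where 5.83% of genes were. DESeq2 with the block called 8 members, where 25.8% of genes were called, 7 of them higher (14.4% of genes) and 1 lower (11.4% of genes), with Cox4i2 again the 1 member at a fold over 2 (6.85% of genes), adding Cox8a and Cox6a1 and leaving out Cox7a2. Without replicate 2 of both groups and without the block, edgeR called 0 members, where 4.6% of genes were called. Without pair 2 the blocked edgeR test called 11 members, where 39.1% of genes were called, and without pair 1 or pair 3 it called 0 members and 0 genes.

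**Figure D3:**
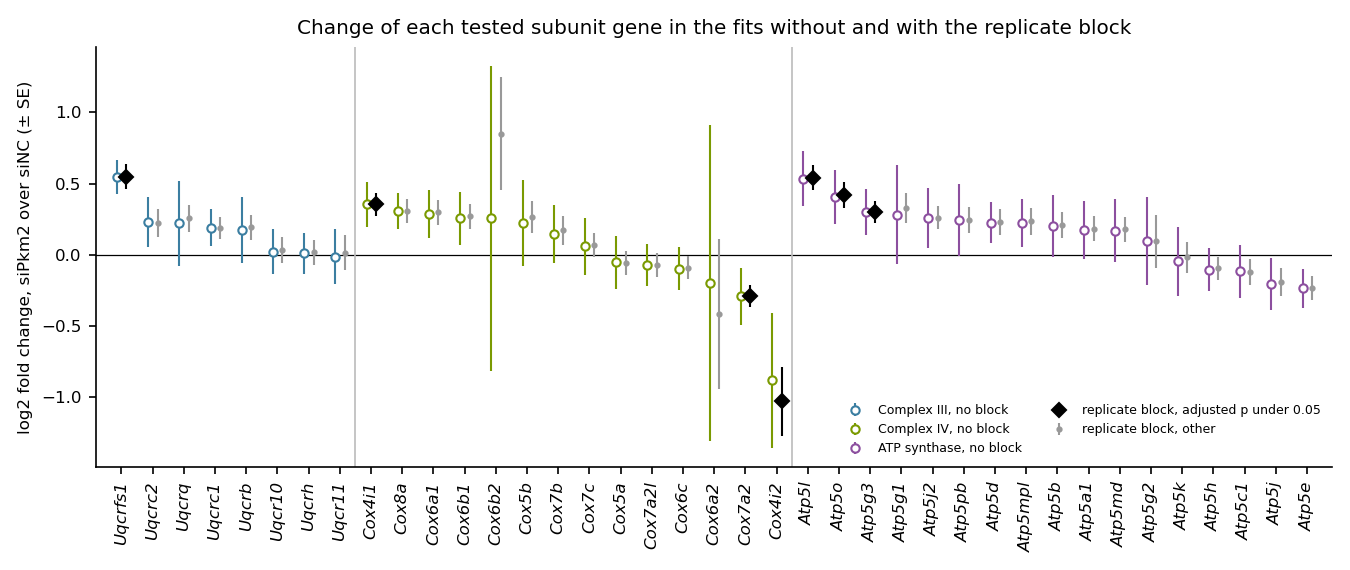
Log2 fold change, siPkm2 over siNC, with its SE for each of the 39 tested members, without the replicate block (open circles, coloured by complex) and with it (diamonds where the adjusted p is under 0.05, grey points otherwise). The 7 diamonds are Uqcrfs1, Cox4i1, Cox7a2, Cox4i2, Atp5l, Atp5o and Atp5g3, and the widest bars belong to Cox6b2 and Cox6a2.

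The spread between libraries of one group was larger than the change in most members. The range over the 3 siNC libraries exceeded the size of the log2 fold change in 33 of 39 members, where it did so in 11009 of 15269 genes. Replicate 1 gave the highest siNC level in 36 of 39 members, where it did so in 5032 of 15269 genes. It also gave the highest siPkm2 level in 36, where it did so in 5240 genes. Replicate 2 was lowest in 21 members in siNC and in 29 in siPkm2, where it was lowest in 6190 and 6049 of 15269 genes. The members lay a median of 0.44 below replicate 1 in siNC replicate 2 on the log2 scale (median difference -0.44, against -0.02 over all genes) and differed by -0.32 between the same replicates of siPkm2. Leaving out siNC replicate 2 lowered the members' median log2 fold change to 0.015, with 21 members higher, and leaving out siNC replicate 1 raised it to 0.34, with 35 higher. Without siPkm2 replicate 1 the median was 0.063, with 24 higher, and without siNC replicate 3 it was 0.11, with 24 higher, while leaving out siPkm2 replicate 2 or 3 gave 0.26 and 0.21.

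**Figure D4:**
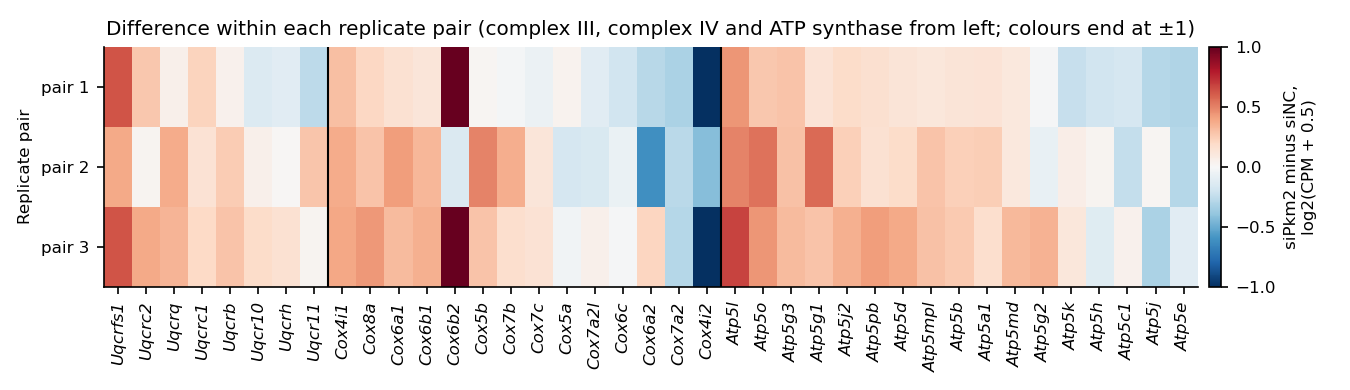
Difference between siPkm2 and siNC within each replicate pair, on the scale of log2(CPM + 0.5), for the 39 tested members ordered by complex and fold change, with red for higher and blue for lower in siPkm2 and colours ending at 1 and -1. Red dominates pair 3, whose median is 0.28, more than pair 1, whose median is 0.05.

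Promoter sequences are shown for the members called by blocked edgeR that the RefSeq table holds. They were searched because genes of this kind often share elements for NRF1 and for ETS factors such as GABPA. The table (build GRCm38.p6, from 250 bases before to 50 after the annotated start) held 33 of the 45 members, and Atp5a1, Atp5mpl, Cox4i1, Cox4i2, Cox6a2, Cox6c, Cox6c2, Cox8c, Uqcrb, Uqcrc2, Uqcrq and the second Atp5o row are named only. Each sequence is written 5′ to 3′ along the gene, and capitals mark a CRE (TGACGTCA) in Uqcrfs1, ETS motifs (CCGGAAG, here on the opposite strand) in Atp5l, an NRF1 motif (the 10-base NRF1 consensus with 1 free position, opposite strand) in Atp5o, and in Atp5g3 an ERR motif (TCAAGGTCA, opposite strand), an NRF1 motif (opposite strand) and the hypoxia motif ACGTGC, which overlaps itself on both strands. Cox7a2 held none of the motifs searched.
Uqcrfs1 (chr13:30545267-30545566, minus strand): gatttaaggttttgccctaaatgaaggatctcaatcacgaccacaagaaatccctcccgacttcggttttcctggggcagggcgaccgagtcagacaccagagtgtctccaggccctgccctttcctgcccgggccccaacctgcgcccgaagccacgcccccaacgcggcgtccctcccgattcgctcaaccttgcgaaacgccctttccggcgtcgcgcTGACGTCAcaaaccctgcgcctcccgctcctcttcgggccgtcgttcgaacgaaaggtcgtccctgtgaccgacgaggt
Atp5l (chr9:44920693-44920992, minus strand): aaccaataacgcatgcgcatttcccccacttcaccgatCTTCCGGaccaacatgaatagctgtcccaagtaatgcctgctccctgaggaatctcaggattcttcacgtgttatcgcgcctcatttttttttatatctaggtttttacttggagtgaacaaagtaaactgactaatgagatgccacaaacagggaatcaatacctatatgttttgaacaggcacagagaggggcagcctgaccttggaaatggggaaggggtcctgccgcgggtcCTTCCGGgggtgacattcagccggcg
Atp5o (chr16:91931581-91931880, minus strand): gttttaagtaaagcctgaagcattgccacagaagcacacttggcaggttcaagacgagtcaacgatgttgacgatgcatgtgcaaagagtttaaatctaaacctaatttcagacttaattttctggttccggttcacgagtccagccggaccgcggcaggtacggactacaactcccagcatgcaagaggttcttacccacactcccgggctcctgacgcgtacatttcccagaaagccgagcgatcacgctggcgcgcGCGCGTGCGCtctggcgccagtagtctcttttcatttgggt
Atp5g3 (chr2:73911277-73911576, minus strand): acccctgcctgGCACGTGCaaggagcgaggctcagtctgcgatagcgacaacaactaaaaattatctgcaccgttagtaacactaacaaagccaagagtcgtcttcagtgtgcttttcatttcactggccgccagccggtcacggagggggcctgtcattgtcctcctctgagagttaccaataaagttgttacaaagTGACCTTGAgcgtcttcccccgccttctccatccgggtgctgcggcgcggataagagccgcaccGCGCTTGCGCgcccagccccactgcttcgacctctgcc
Cox7a2 (chr9:79759804-79760103, minus strand): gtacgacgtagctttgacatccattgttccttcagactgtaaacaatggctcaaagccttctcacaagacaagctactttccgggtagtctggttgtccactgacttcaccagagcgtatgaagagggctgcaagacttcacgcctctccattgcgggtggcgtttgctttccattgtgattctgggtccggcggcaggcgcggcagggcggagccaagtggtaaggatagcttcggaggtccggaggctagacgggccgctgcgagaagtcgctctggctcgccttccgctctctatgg

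The NRF1 motif was found on either strand in 8 of the 33 member promoters (24.2%), where 5.19% of 27025 genes with a promoter held it. The ETS motif was in 11 (33.3%), where 9.93% of genes held it, and the YY1 motif AAGATGGC in 3 (9.09%), where 3.19% did. The hypoxia motif was in 3 (Atp5g3, Cox7a1 and Cox8b), where 6.68% of genes held it, and the CRE and the ERR motif were in 1 member each, where 2.03% and 0.466% of genes held them. Members with either motif did not have the larger median change: the median log2 fold change was 0.14 in the 8 tested members with an NRF1 motif and 0.19 in the 22 without, and 0.01 in the 11 with an ETS motif and 0.20 in the 19 without. The members called by blocked edgeR were spread over both sides, with Atp5o and Atp5g3 holding NRF1, Atp5l holding ETS, and Uqcrfs1 and Cox7a2 holding neither. DESeq2 with the block left out Cox7a2 and added Cox8a, which held ETS, and Cox6a1, which held both. These matches are letters in a window and not measured binding.

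In complex III, the change was largest in Uqcrfs1 (chr13:30540308-30545362, GENCODE M21 on GRCm38, minus strand), which encodes the mobile Rieske iron-sulphur protein. Its levels were 60.7, 62.9 and 55.2 CPM in siNC libraries 1, 2 and 3, the order used throughout, against 94.0, 81.9 and 85.6 CPM in siPkm2. All 3 siPkm2 libraries were above all 3 siNC libraries. The pairs rose by 0.63, 0.38 and 0.63 on the log2 scale, least in pair 2. The means were 59.6 ± 3.99 and 87.2 ± 6.17 CPM (SD, n = 3), a log2 fold change of 0.55 (SE 0.12), or 46.3% more, with an adjusted p of 0.130 by edgeR without the block and 0.0179 with it. Leaving out 1 pair gave a blocked log2 fold change between 0.51 and 0.62, but the call by edgeR was lost without pair 1 (adjusted p 0.111) and without pair 3 (adjusted p 0.137).

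The remaining complex III subunits changed less. Uqcrc1 and Uqcrc2 form the large core on the matrix side. Uqcrc1 was at 141, 131 and 128 CPM in siNC and at 165, 145 and 147 CPM in siPkm2, without overlap but with a log2 fold change of only 0.19 (blocked adjusted p 0.130 by edgeR). Uqcrc2, the lowest of the complex by TPM, was at 112.7, 96.6 and 85.7 CPM in siNC and at 135.6, 98.3 and 111.8 CPM in siPkm2. It was higher in all 3 pairs by 0.27, 0.03 and 0.38 on the log2 scale, with overlapping groups, and passed the blocked edgeR test only without pair 2 (adjusted p 0.0246). Of the small accessory subunits, Uqcrb and Uqcrq, which sit next to cytochrome b, had log2 fold changes of 0.18 (SE 0.23) and 0.22 (SE 0.30) and were higher in all 3 pairs. Uqcr10, Uqcrh, the hinge protein that contacts cytochrome c1, and Uqcr11 had log2 fold changes of 0.02, 0.01 and -0.01. For Uqcr10, the most abundant of the complex, the libraries held 609, 570 and 586 TPM in siNC and 633, 589 and 626 TPM in siPkm2. Under upper-quartile scaling the signs of Uqcr10 and Uqcrh turned (-0.04 and -0.06). In this complex 5 of 8 members were higher in all 3 pairs and none was lower in all 3.

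In complex IV, the paralogues Cox4i1 and Cox4i2 moved in opposite directions. Both encode subunit 4, a nuclear subunit that binds ATP and regulates the enzyme, and Cox4i2 is the form known from lung and from cells under low oxygen. Cox4i1 (chr8:120668222-120674207, plus strand) lay at 268, 220.3 and 246 CPM in siNC and at 329.9, 286 and 323 CPM in siPkm2. Every siPkm2 library was above every siNC library. The log2 fold change was 0.35 (SE 0.16), with an adjusted p of 0.307 without and 0.0350 with the block by edgeR. Cox4i2 (chr2:152754173-152765037, plus strand) lay at 14.7, 23.3 and 18.1 CPM in siNC and at 4.66, 17.2 and 8.50 CPM in siPkm2. Each siPkm2 library was below its partner, by 1.55, 0.43 and 1.05 in the order of the pairs (log2 differences -1.55, -0.43 and -1.05), but siPkm2 replicate 2 lay above siNC replicate 1. The log2 fold change was -0.88 (SE 0.47) without the block and -1.03 (SE 0.24) with it, with adjusted p of 0.390 and 0.0363 by edgeR.

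The share of Cox4i2 among the transcripts of this subunit followed. Of the summed TPM of Cox4i1 and Cox4i2, Cox4i2 took 5.36%, 9.90% and 7.08% in siNC and 1.44%, 5.89% and 2.66% in siPkm2. The share dropped by a similar amount in each pair, with differences of -3.92, -4.00 and -4.43 percentage points, and the groups overlapped because both libraries of replicate 2 were high. The means were 7.45% ± 2.29 and 3.33% ± 2.30 (SD, n = 3). By a two-sided exact permutation test the difference had p = 0.2 (0.7 after adjustment over the 7 isoform shares compared), where 3 against 3 libraries cannot go below 0.1. That test sets aside the pairing, and an exact sign-flip test of the 3 pair differences, added after they were seen, gave p = 0.25, the smallest that 3 pairs allow. Between 100 and 577 reads per library stood behind the Cox4i2 values.

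The factors known to act on Cox4i2 gave mixed values, and their part in its change was not tested. In the blocked edgeR test Rbpj, a factor that binds the oxygen-responsive element of this gene, fell by 0.75 on the log2 scale (adjusted p 0.0177). In that test 10.8% of all genes fell. Without the block Rbpj had a log2 fold change of -0.70 (SE 0.52, adjusted p 0.540 by edgeR). Its levels were 301, 682 and 303 CPM in siNC and 146, 447 and 201 CPM in siPkm2, highest in replicate 2 of both groups. Hif1a, Chchd2 and Cxxc5, the other factors considered for this gene, had blocked log2 fold changes of 0.31, 0.20 and -0.38 and did not pass the test (adjusted p 0.0674, 0.150 and 0.0829 by edgeR).

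**Figure D5:**
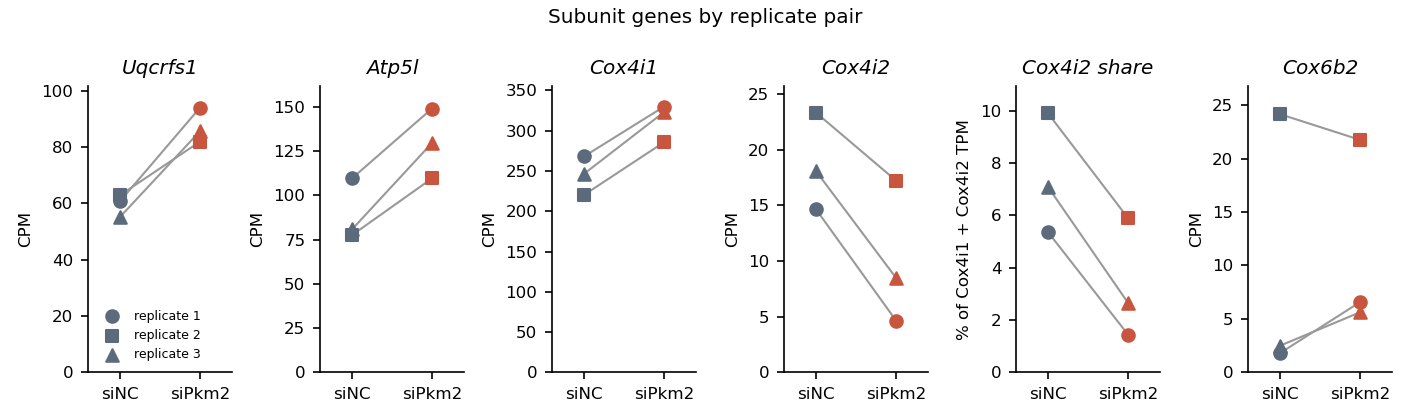
CPM of Uqcrfs1, Atp5l, Cox4i1, Cox4i2 and Cox6b2, and the Cox4i2 share of Cox4i1 plus Cox4i2 TPM in percent, in each library, with lines joining replicate numbers and every axis starting at 0. The lines of Uqcrfs1, Atp5l and Cox4i1 all rise and those of Cox4i2 and its share all fall, whereas Cox6b2 is set mainly by replicate 2, at 24.2 and 21.7 CPM.

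Cox6b2, the testis form of subunit 6B, differed more between replicates than between groups. It lay at 1.80, 24.2 and 2.50 CPM in siNC and at 6.57, 21.7 and 5.62 CPM in siPkm2. Both libraries of replicate 2 were high, and outside replicate 2 the siPkm2 libraries were higher, so that the log2 fold change of 0.26 (SE 1.07) became 0.85 (SE 0.40) with the block (adjusted p 0.169 by edgeR) and passed only without pair 2 (adjusted p 0.00626). Its share of subunit 6B TPM was 1.29%, 21.1% and 2.91% in siNC and 4.38%, 15.99% and 5.30% in siPkm2 (two-sided exact permutation p = 1.0). Its 2 neighbours on the same strand of chromosome 7 were read beside it after these values had been seen. Fam71e2, whose annotated 3′ end lies 131 bases away, had at most 1 count in any library. Il11, an interleukin gene 19278 bases away, had 15, 107 and 10 counts in siNC and 230, 203 and 95.3 counts in siPkm2. The library totals of Cox6b2 were 45, 597 and 57 counts in siNC and 141, 559 and 123 counts in siPkm2. Cox6b1, the ubiquitous partner, lay at 120.5, 87.9 and 82.8 CPM in siNC and at 131, 111 and 106 CPM in siPkm2, higher in all 3 pairs with overlapping groups (log2 fold change 0.26, blocked adjusted p 0.0774 by edgeR).

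The forms of subunits 6A, 7A and 8 that are typical of heart and skeletal muscle were close to absent. Cox6a2 lay at 2.08, 0.324 and 1.27 CPM in siNC and at 1.63, 0.0389 and 1.55 CPM in siPkm2, lowest in replicate 2 of both groups, and took at most 0.908% of subunit 6A TPM. Cox7a1 gave 6, 14 and 4 counts in siNC and 6, 17 and 4 counts in siPkm2, highest in replicate 2, and took between 0.927% and 4.54% of the TPM it shared with Cox7a2. Cox8b, the muscle form, and Cox8c, a testis form, had no count. The two-sided exact permutation test gave p = 0.6 for Cox6a2 and p = 0.5 for Cox7a1, where it could not go below 0.1. These transcripts therefore stood near the floor of detection in chondrocytes, and the skeletal muscle markers were low as well.

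Their ubiquitous partners went both ways. Cox8a, the only subunit 8 gene with counts, lay at 131, 119 and 111 CPM in siNC and at 151, 145 and 150.1 CPM in siPkm2. The groups did not overlap, and the log2 fold change was 0.31 (SE 0.13), with adjusted p of 0.282 without and 0.0544 with the block by edgeR and 0.0351 by DESeq2 with the block. Cox6a1 lay at 172, 127 and 163 CPM in siNC and at 191, 170.2 and 203 CPM in siPkm2, higher in all 3 pairs, with 0.29 (SE 0.17) and adjusted p of 0.0661 by blocked edgeR and 0.0452 by blocked DESeq2. Cox7a2 went the other way, from 67.0, 48.7 and 48.2 CPM in siNC to 53.8, 40.4 and 39.5 CPM in siPkm2. Its difference was almost equal in the 3 pairs (-0.31, -0.27 and -0.28), although the groups overlapped through replicate 1. The log2 fold change was -0.29 (SE 0.20), with an adjusted p of 0.496 without and 0.0477 with the block by edgeR and 0.1003 by DESeq2 with the block, so that the call depends on the tool.

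Of the other complex IV subunits, none passed a test in the full set of libraries. Cox5a and Cox5b, which flank the catalytic core, had log2 fold changes of -0.05 (SE 0.19) and 0.22 (SE 0.30), and Cox5b followed the replicates, with 176 TPM in siNC replicate 2 against 319 and 265 TPM in replicates 1 and 3. Cox6c fell short of a call with -0.10 (SE 0.15), lower in all 3 pairs by at most 0.19 on the log2 scale (differences -0.19, -0.07 and -0.01). Cox7a2l, a factor that joins complexes III and IV into supercomplexes, had -0.07 (SE 0.15), and Cox7c had 0.06 (SE 0.20), whose sign turned to -0.01 under upper-quartile scaling. Cox7b had 0.15 (SE 0.20) from its counts, but its TPM did not follow them: siNC replicate 3 was listed at 271 TPM with 1780 counts, while siNC replicate 2 was listed at 135 TPM with 1531 counts. Cox7b is the member in which the ratio of counts to TPM varied most between libraries, by 2.02 times.

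In ATP synthase, 12 of 17 tested members had a positive log2 fold change, where 48.1% of all genes did. In the blocked edgeR test 3 rose and none fell, where 12.3% of all genes rose and 10.8% fell. In all 3 pairs 11 were higher and 1 lower on CPM, and 12 and 4 on TPM. Of the 5 subunits of the catalytic head and central stalk 3 had a positive value, of the 4 peripheral stalk subunits 2, of the 3 c ring genes all and of the 5 small membrane subunits 4. The alpha and beta subunits Atp5a1 and Atp5b form the catalytic head. Atp5b lay at 742, 513 and 612 CPM in siNC and at 811, 606 and 734 CPM in siPkm2, higher in all 3 pairs by 0.13, 0.24 and 0.26 on the log2 scale with overlapping groups (log2 fold change 0.20, SE 0.22, blocked adjusted p 0.141 by edgeR). Atp5a1 was at 641, 467 and 598 CPM in siNC and at 703, 554 and 671 CPM in siPkm2 (0.18, SE 0.20), and its pair differences of 0.13, 0.25 and 0.17 ran close to those of Atp5b. The central stalk joins the head to the rotor. Atp5d, the delta subunit, had 0.23 (SE 0.14) and was higher in all 3 pairs. Atp5c1, the gamma subunit, had -0.12 (SE 0.19), with pairs going both ways on CPM but all 3 lower on TPM. Atp5e, the small epsilon subunit, lay at 55.9, 47.7 and 46.2 CPM in siNC and at 45.4, 39.0 and 42.8 CPM in siPkm2. It was the one member whose siPkm2 libraries all lay below its siNC libraries (-0.24, SE 0.14), and it was not called (adjusted p 0.421 without and 0.101 with the block by edgeR).

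The c ring, the rotor that protons turn, is built from a protein encoded by Atp5g1, Atp5g2 and Atp5g3, which yield the same mature subunit. Atp5g3 lay at 127, 98.3 and 109 CPM in siNC and at 155, 121 and 136 CPM in siPkm2. Its pair differences were nearly equal at 0.29, 0.30 and 0.31 on the log2 scale, with groups that overlapped in replicate 2, and it rose in the blocked edgeR test (log2 fold change 0.30, SE 0.08, adjusted p 0.0431). Atp5g1 lay at 94.6, 40.1 and 72.55 CPM in siNC and at 103.9, 59.6 and 88.4 CPM in siPkm2. It was higher in all 3 pairs, most in pair 2 (0.57), and was not called (0.28, SE 0.35, blocked adjusted p 0.0777 by edgeR). Atp5g2 was low at 7.01, 4.41 and 4.82 CPM in siNC and 6.95, 4.16 and 6.26 CPM in siPkm2, with overlapping groups. Of the summed TPM of the 3 genes, Atp5g3 gave 61.2% ± 6.71 in siNC and 59.5% ± 4.59 in siPkm2, Atp5g1 gave 35.9% ± 6.82 and 38.0% ± 4.46, and Atp5g2 gave 2.93% ± 0.325 and 2.48% ± 0.212 (SD, n = 3). The two-sided exact permutation test gave p = 0.7, 0.6 and 0.2, and with its limit of 0.1 it could not have called any of these shares.

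Among the peripheral stalk subunits, which hold the head still against the rotor, only Atp5o was called. Atp5o (chr16:91925214-91931687, minus strand), the oligomycin sensitivity-conferring protein at the top of the stalk, lay at 124, 81.7 and 103.5 CPM in siNC and at 149, 119 and 141 CPM in siPkm2. All 3 pairs rose, by 0.27, 0.55 and 0.45 on the log2 scale, and the groups overlapped because siPkm2 replicate 2 lay below siNC replicate 1. The log2 fold change was 0.41 (SE 0.19), with an adjusted p of 0.332 without and 0.0296 with the block by edgeR. Atp5pb, subunit b, had 0.25 (SE 0.26) and was higher in all 3 pairs. Atp5h, subunit d, and Atp5j, coupling factor 6, had -0.10 (SE 0.15) and -0.21 (SE 0.18). Their pairs went both ways on CPM, while on TPM both genes were lower in all 3 pairs. Atp5j passed the blocked edgeR test only without pair 2 (adjusted p 0.0230).

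The small membrane subunits around the rotor included the ATP synthase gene that rose most. Atp5l (chr9:44912557-44920742, minus strand), subunit g, which takes part in holding ATP synthase as dimers, lay at 109.5, 77.5 and 80.7 CPM in siNC and at 149, 109.5 and 129.5 CPM in siPkm2. The siPkm2 libraries lay above the siNC libraries, though siPkm2 replicate 2 and siNC replicate 1 were nearly equal, and the pairs rose by 0.44, 0.50 and 0.68 on the log2 scale. The log2 fold change was 0.54 (SE 0.19), or 44.9% more, with an adjusted p of 0.235 without and 0.0176 with the block by edgeR and 0.000145 by DESeq2 with the block. Atp5j2 (subunit f), Atp5md and Atp5mpl, small proteins of the membrane part, were higher in all 3 pairs with log2 fold changes of 0.26, 0.17 and 0.23. Atp5k, subunit e, had -0.05 (SE 0.24), with pairs going both ways on CPM but all 3 higher on TPM. None of these 4 was called.

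The partners of the subunits gave the setting, from lists of genes known to work with these complexes. Both electron carriers rose in the blocked edgeR test, where 12.3% of all genes did. Cyc1, the cytochrome c1 of complex III, went from 75.2, 62.6 and 59.99 CPM to 92.2, 75.7 and 83.7 CPM (log2 fold change 0.35, adjusted p 0.0379), and Cycs, cytochrome c, from 47.0, 34.8 and 32.0 CPM to 76.9, 50.9 and 54.5 CPM (0.68 with an adjusted p of 0.0133). With the block, none of 6 complex III assembly factors was called, where 23.1% of all genes were. Of 27 tested assembly factors and associated proteins of complex IV, 16 were higher, with a median log2 fold change of 0.13. With the block 3 rose, where 12.3% of all genes did: Coa5 (0.75, adjusted p 0.0124 by blocked edgeR), Cox18 and Ndufa4.

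The 5 assembly factors of ATP synthase went both ways. Blocked edgeR called 1 higher and 2 lower, where it called 12.3% and 10.8% of all genes. Atpaf1, the chaperone that brings the beta subunit into the head, lay at 24.3, 28.1 and 24.0 CPM in siNC and at 10.4, 11.4 and 10.4 CPM in siPkm2. The groups were far apart, with a log2 fold change of -1.25 (SE 0.15) and an adjusted p of 0.0738 without and 0.00942 with the block by edgeR. With the block, Oxa1l, the inner membrane insertase, fell as well (-0.49), Fmc1 rose (0.82), and Atpaf2 and Tmem70 had 0.40 and -0.11 and were not called. The 6 subunits of these complexes that mitochondrial DNA encodes had a median log2 fold change of -0.17, with 2 of them higher. Blocked edgeR called 0 of the 6, where it called 23.1% of all genes. The median is uncertain, because some of the 6 spread widely between libraries of 1 group. In siPkm2 mt-Co3 lay at 0.14, 83.1 and 29.5 CPM (SE 1.35 without the block) and mt-Atp6 at 144.6, 49.9 and 16.6 CPM. The libraries held a mitochondrially encoded share of 3.90% ± 0.730 of TPM in siNC and 4.08% ± 0.993 in siPkm2 (SD, n = 3). Of the 4 subunits of complex II, Sdhb fell in the blocked edgeR test (log2 fold change -0.87 without the block, blocked adjusted p 0.0182), where 10.8% of all genes did.

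Among 12 regulators known to act on such genes, 3 were called by blocked edgeR, a share near the 23.1% of all genes. Esrra, the estrogen-related receptor alpha, fell from 30.2, 38.7 and 30.2 CPM to 14.8, 25.0 and 16.9 CPM (blocked log2 fold change -0.83, adjusted p 0.0142) and Rbpj fell as given above. Ppargc1a, the coactivator PGC-1alpha, rose from 1.60, 1.70 and 2.58 CPM to 3.17, 3.42 and 4.20 CPM (blocked log2 fold change 0.89, adjusted p 0.0462), at a low level. Nrf1, Gabpa and Tfam had blocked log2 fold changes of 0.10, -0.14 and 0.15 and were not called.

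Matches to the seed of the siRNA were counted among the members. The supplement names the third of the study's siPkm2 sequences as the one chosen, without tying it to the sequenced cultures, and its guide strand is shown with bases 2 to 8 in capitals.
siPkm2 guide: uGUUUCUCcagacagcaug
The reverse complement of that seed, GAGAAAC, occurred within the annotated 3′ untranslated sequence (its longest form) of 1 of the 39 tested members, against 16.4% of 13202 genes. The members' regions are short, with a median of 201 bases against 1236 bases. The match was in Atp5md, and its surroundings are shown with the seed match in capitals.
Atp5md site: gctagagcctgGAGAAACgtctcagaggt
Atp5md was higher in all 3 pairs (log2 fold change 0.17, blocked adjusted p 0.192 by edgeR).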

How the data were processed

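RNA sequencing of 3 siNC and 3 siPkm2 libraries was used. The authors deposited estimated counts for 55416 genes, not normalized and in part fractional, and TPM values, which are per length. They also deposited their own group means and comparison, which were not used. The submitters' notes list mm9 and edgeR, and the aligner and counter are not given in the sources used here. The table carries no coordinates, and 94.0% of its identifiers are in GENCODE M21 (GRCm38), which gave positions.

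Counts were rounded, filtered by filterByExpr (15269 genes), scaled by TMM and compared with edgeR 4.0.16 in R 4.3.3 by its quasi-likelihood test, and p-values were adjusted by Benjamini-Hochberg over the whole table. SE is the log2 fold change divided by the square root of F. DESeq2 1.42.0 and limma 3.58.1 on log2(TPM + 1), or + 0.1, were alternatives, as were other scalings and filters and each library left out. Pairs used log2(CPM + 0.5). The thresholds were an adjusted p of 0.05, and a fold of 2 with it. Scripts were tested on simulated data.

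Replicate numbers come from the titles, and nothing says what a number stands for. They pair the libraries: across genes, same-numbered libraries deviated together from the mean of their group (r = 0.72, 0.79 and 0.72). Duplicated libraries were not found, as at least 56.5% of genes differed beyond counting noise between any 2 libraries of a group. Depth was similar, so the spread between libraries sets the precision.

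Members, lists and motifs were chosen with earlier results of these data known. The genes named with values in every library were the tested members with an unadjusted p under 0.05, those called with the block, the highest and lowest of each complex by TPM, the isoform families, and the 3 lowest and 3 highest by log2 fold change. Uqcrc1, Atp5a1, Fam71e2, Il11 and the partner genes given by library were chosen after their values were seen.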

Additional observations from a re-analysis of the deposited data

How the results depend on the processing

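The replicate block, with pairing by replicate number, raised the members called from 0 to 7, where the share of all genes rose from 0.0% to 23.1%. At a fold over 2 it called 1 member, where it called 5.83% of all genes. With RLE scaling the blocked counts were again 7 and 1, where 23.3% of genes and, at a fold over 2, 900 of 15269 were called. Without mitochondrial genes they were 7 and 1 (23.2%, and 896 of 15254 genes), and with upper-quartile scaling 5 and 1 (23.2%, and 935 of 15269). By DESeq2 they were 8 and 1 (25.8% and 6.85% of genes). Without pair 2 they were 11 and 2, where 39.1% of genes and, at a fold over 2, 1639 of 15185 were called. Without pair 1 or pair 3 they were 0 for members and for all genes. These blocked settings other than the plain block and DESeq2 were added after the data were seen. DESeq2 without the block called 1 member, where it called 5.38% of genes. No member was called without the block when 1 library was left out (0 to 0 at both thresholds), where at most 0.674% of genes were. Leaving out 1 library moved the median log2 fold change between 0.015 and 0.34 for all members, 0.027 and 0.29 for complex III, -0.087 and 0.25 for complex IV, and 0.085 and 0.36 for ATP synthase, and the members higher between 21 and 35. By limma on TPM the median of complex IV was -0.0026 with 1 added and -0.0027 with 0.1 added, and the cause was not tested. Taken on TPM, 8 members in place of 4 were lower and 23 in place of 21 higher in all 3 pairs. Leaving out 1 library moved the siPkm2 minus siNC share between -5.40 and -2.89 percentage points for Cox4i2, -0.338 and 0.0386 for Cox6a2, -3.61 and 6.45 for Cox6b2, -0.245 and 1.45 for Cox7a1, -1.68 and 4.89 for Atp5g1, -0.636 and -0.343 for Atp5g2, and -4.52 and 2.02 for Atp5g3. The main fit called 0.0% of all genes, so no named gene could lose a call. Of the values for single named genes in the other settings, 368 stayed uncalled and 45 were called. Apart from Uqcrfs1 by DESeq2 without the block, these calls came from blocked fits, which called 23.1% to 39.1% of all genes. Depth limits Cox6a2, at 1 to 52 counts per library, more than Cox4i2, at 100 to 577.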
